A study of Rattus norvegicus with 3 samples.

Results

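Transcription factors of the osteoblast lineage were examined in rat cells given polyphosphate, as 9 of the 26115 gene names on the array: Runx2, Sp7, Msx1, Msx2, Dlx3, Dlx5, Creb3l1, Twist1 and Cbfb. They were chosen by name, as every non-control probe whose gene name in the scanner output was one of them, which gave 12 of 30367 probes and 31 spots per array. Runx2 had 3 probes, Msx2 had 2 and each other gene had 1. All cells were ROS17/2.8, a line derived from a rat osteosarcoma that is used as an osteoblast model. It is a clonal tumour line, so the arrays describe these transformed cells and not primary bone cells. All groups were confluent cells in serum-containing medium supplemented with ascorbate phosphate and 1 mM glycerophosphate, which favours mineralization. One group received 1 mg/ml polyphosphate (the high dose), another received 0.01 mg/ml (the low dose), and the control received none. The treated cells were measured after 24 h. For the control, no time was labelled. Polyphosphate is a linear chain of phosphate units that cells can cleave to free phosphate.

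Each group had 1 array, hybridised with Cy3-labelled cRNA made from 50 ng of total RNA. No comparison therefore has a replicate or a p-value. The 3 arrays shared a slide, and culture, labelling and slide position cannot be told apart from the dose. Less RNA per cell and fewer cells expressing a gene cannot be told apart in such bulk RNA.

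RUNX2 is the master regulator of osteoblast commitment, and it binds DNA as a heterodimer with the non-DNA-binding subunit CBFB. SP7 (osterix) acts downstream of RUNX2, and the homeodomain proteins DLX3, DLX5 and MSX2 act on bone matrix genes and on Runx2 itself. TWIST1 restrains RUNX2 function in early skeletal cells. CREB3L1 (OASIS) is a membrane-bound factor of the endoplasmic reticulum that is released by proteolysis and in osteoblasts activates the type I collagen gene Col1a1.

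Of the 12 probes, 3 sets are shown because the results turn on them. The first set is Creb3l1, the factor with the widest range over the 3 arrays, whose probe lies on chr3:76361171-76361230 (rat build rn4, minus strand). The second is the pair for Msx2 on chr17, at chr17:17248562-17248621 (probe 1) and chr17:17247696-17247755 (probe 2), both on the plus strand and with a gap of 807 bp between them. The third is the trio for Runx2 on the plus strand of chr9, whose members gave different ratios: chr9:12025100-12025159 (probe 1), chr9:12021264-12021323 (probe 2) and chr9:11945923-11945982 (probe 3). Each probe is 60 bases long. Only the first 30 bases are shown for Creb3l1, Msx2 probe 1 and Runx2 probe 1. The capitals at the end of Msx2 probe 2 mark TAA, a stop codon triplet. Whether a probe lies in an exon or a UTR was not assigned, because no annotation of the rn4 build was used here.
Creb3l1: gcctttttaactgctcctccaccagctcag
Msx2 probe 1: gcttagaaatgagtgtcttgtaactgttgc
Msx2 probe 2: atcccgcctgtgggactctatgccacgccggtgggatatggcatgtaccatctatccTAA
Runx2 probe 1: gggactatttgtattgtatgttgcaactgt
Runx2 probe 2: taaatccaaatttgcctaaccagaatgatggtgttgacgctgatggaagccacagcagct
Runx2 probe 3: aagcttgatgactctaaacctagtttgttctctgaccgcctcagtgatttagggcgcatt

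The signal is the scanner's processed intensity. For ratios it was divided by the 75th percentile of each array (937 for the array of the high dose, 964 for that of the low dose and 926 for the control) and taken to log2. Between 55.9% and 57.2% of probes were well above background on an array. Every one of the 9 genes was well above background on all arrays. The ± values are spot errors. A spot error is the standard error that the scatter between repeat spots of a probe gives a log2 ratio, and it leaves out all differences between cultures. A gene was counted where it stood at least 1.2-fold apart, or over 2 spot errors apart, and these counts are descriptions. Of 10 spike-in control probes, 8 were well above background, and their mean log2 ratio was -0.16 at each dose relative to the control and 0.00 between the doses. Scaling on the spike-ins would thus raise every gene by 0.16 in both comparisons with the control and leave high against low in place. Over all genes past 1.2-fold, it would make 90.2% the higher ones for high against control, beside 47.6% as scaled here, and 90.4%, beside 44.0%, for low against control. Ratios below are without that shift, and the comparisons with the control share the one control array.

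Osteoblast markers were measured on all arrays, 8 of 8 above background, with a summed signal of 40529 at the high dose, 43976 at the low dose and 41682 in the control. Most of that sum came from Sparc (12398 to 14629) and Spp1 (9902 to 12003). Bglap, which encodes osteocalcin, was dim at 43.2 to 50.7, and Phospho1 read 117.6 to 170.1. The median log2 ratio of the 8 osteoblast markers was -0.10 for high against control, and the spike-in shift would turn that median positive. By over 2 spot errors, 1 of 8 was higher (10.7% of all genes) and 4 were lower (12.8%). By 1.2-fold, 0 were higher (7.16%) and 1 was lower (7.87%), namely Phospho1 at -0.45 ± 0.13. Fewer of the markers of other cell types were above background. Adipocyte markers gave 1 of 6 above background, with Pparg, Cebpa, Adipoq, Plin1 and Lpl not above it, and a summed signal of 156 to 175. Myoblast markers gave 3 of 5, without Myod1 and Myf6 (summed signal 177 to 204), and chondrocyte markers gave 3 of 8 (795 to 967). Endothelial markers gave 2 of 4, without Kdr and Tek (206 to 245), and leukocyte and osteoclast markers gave 3 or 4 of 6, without Ptprc and Calcr (280 to 289). Above background on all arrays were Fabp4 (132.2 to 146.5), Des (67.4 to 78.9), Myog (31.7 to 35.35) and Myf5 (34.5 to 40.6). So were Sox6 (306.1 to 371), Sox9 (125 to 182.9) and Hapln1 (72.2 to 100.3). Pecam1 read 87.5 to 118.4 and Cdh5 102.2 to 115.4. Csf1r read 35.2 to 46.0, Acp5 73.0 to 78.9 and Cd68 65.7 to 89.3. Osteocyte markers gave 2 or 3 of 6 (4034 to 4170) and tenocyte markers 1 or 2 of 3 (4364 to 5037). Among these Scx, a tenocyte marker, read 2754 to 3179, beside 2733 to 3285 for the osteoblast marker Alpl. The osteocyte markers Pdpn and Mepe read 992 to 1049 and 527 to 550. The part of other cell types in the values below was not tested.

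High dose against control asked how the factors stood after polyphosphate at the higher concentration. Creb3l1 and Msx2 were lower by at least 1.2-fold, Dlx5 was lower by over 2 spot errors, and Cbfb was higher by over 2 spot errors. The median log2 ratio of the 9 genes was -0.14, with 6 below 0 and 3 above, beside a median of -0.01 over 14495 measured genes. Scaled on the spike-ins, the median of the 9 genes turned to 0.02, beside 0.15 over all genes. By 1.2-fold the counts below turned to 2 higher (Cbfb and Twist1) and 0 lower, beside 3347 and 364 of 14495 genes. By over 2 spot errors they turned to 3 higher (with Msx1) and 2 lower (Creb3l1 and Msx2), beside 6067 and 247. Without the spike-in shift, 0 of 9 were higher by at least 1.2-fold, where 7.16% of all measured genes were, and 2 were lower, where 7.87% were. By over 2 spot errors, 1 of 9 was higher (10.7% of all genes) and 3 were lower (12.8%). No factor stood 2-fold apart, as did 0.0621% of all genes upward and 0.0552% downward. Nothing particular to the list as a whole is read from these counts.

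Low dose against control asked whether the lower concentration gave the same picture. It placed the factors close to the control. The median log2 ratio was 0.02, beside 0.00 over 14621 genes, with 4 genes below 0 and 5 above. None of the 9 passed 1.2-fold or 2-fold. By 1.2-fold 3.99% of all genes were higher and 5.08% lower, and by 2-fold 0.0684% were higher and 0.0479% lower. By over 2 spot errors, 0 were higher (4.16% of all genes) and 1 was lower (4.4%), namely Msx2. Scaled on the spike-ins, the median was 0.18, beside 0.16 over all genes. With that scaling 6 of 9 were higher and 0 lower by over 2 spot errors, beside 6580 and 65 of 14621 genes.

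The doses against each other gave ratios that the spike-in scaling left in place. By at least 1.2-fold, 0 of 9 genes were higher at the high dose (6.97% of all genes) and 1 was lower (6.13%), namely Creb3l1. None stood 2-fold apart, where 0.0483% of all genes were higher and 0.0276% lower. By over 2 spot errors, 0 were higher (9.75%) and 4 were lower (10.8%): Creb3l1, Msx2, Runx2 and Dlx5. The normexp alternative started from the mean spot signal and the median local background, not from the processed signal. Input and correction thus changed together, and their parts were not separated. With normexp background correction 1 of these 4 still passed, Creb3l1, while Msx2 was at -0.16 ± 0.10, Runx2 at -0.13 ± 0.09 and Dlx5 at -0.13 ± 0.15. The median was -0.11, beside -0.01 over 14480 genes, with 5 genes below 0 and 4 above.

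**Figure D1:**
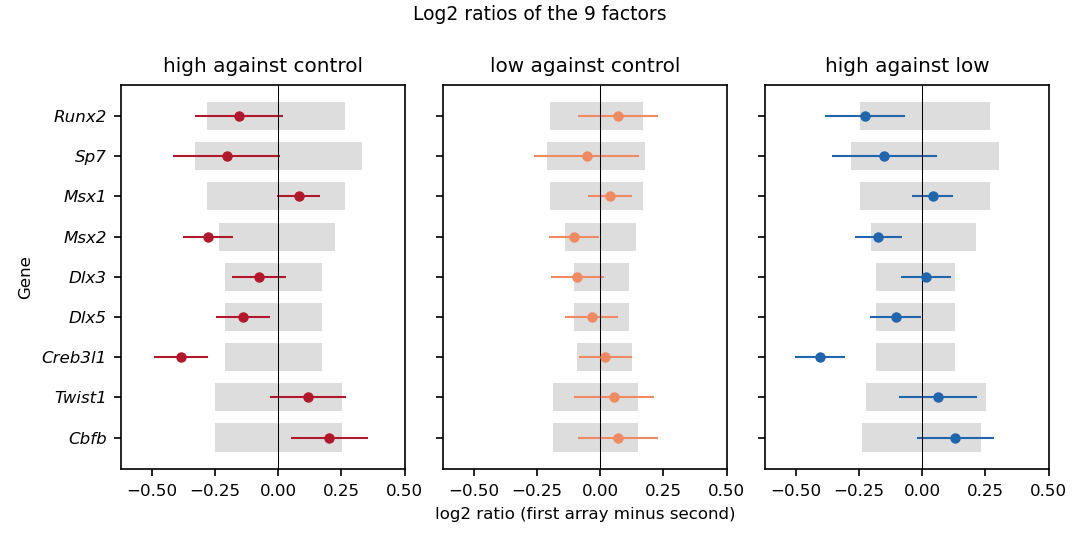
Log2 ratio of each gene (dots, first array minus second) in the 3 comparisons, with bars of 2 spot errors. The grey bars span the 5th to the 95th percentile of genes of a similar level. Creb3l1 lay outside its grey bar at the high dose against the control (-0.38) and against the low dose (-0.40), and Msx2 lay outside its own against the control (-0.28).

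RUNX2 and its partner subunit come first. Runx2 probe 1 read 2276 and 2280 at the high dose, 2317 and 2221 with the low dose, and 2332 and 2333 in the control. After scaling, the high dose stood at -0.05 ± 0.06 and the low dose at -0.10 ± 0.06 relative to the control, and the doses differed by 0.05 ± 0.06 (log2, high minus low). None of these passed 2 spot errors, and both doses lay slightly below the control.

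Runx2 probe 2 had 1 spot per array, at 190.5 (high), 228 (low) and 209 (control). Runx2 probe 3 read 63.0 and 62.6 at the high dose, 90.7 and 93.4 with the low dose, and 66.2 and 84.5 in the control. On both of these dimmer probes the high dose was the lowest array and the low dose the highest. Probe 2 gave -0.22 ± 0.16 and probe 3 gave -0.51 ± 0.17 for high against low, against 0.05 ± 0.06 on probe 1. The gaps between neighbouring probes are 3777 bp from probe 2 to probe 1 and 75282 bp from probe 3 to probe 2.

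The mean over the 3 probes of Runx2 was -0.16 ± 0.09 (high) and 0.07 ± 0.08 (low) relative to the control, and -0.23 ± 0.08 for high against low. The count of Runx2 among the genes lower at the high dose than at the low dose thus rested on its dim probes, which enter with the same weight as the bright one. With probes weighted by the inverse square of their spot error, a choice made after the values were seen, the high against low ratio was -0.04 ± 0.05. Probe 3 alone passed 2 spot errors in that comparison, and with normexp background correction the mean over probes was -0.13 ± 0.09. The ratios to the control had no settled direction. Spike-in scaling turned high against control to 0.0020, and weighting the probes turned low against control to -0.04 ± 0.05.

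**Figure D2:**
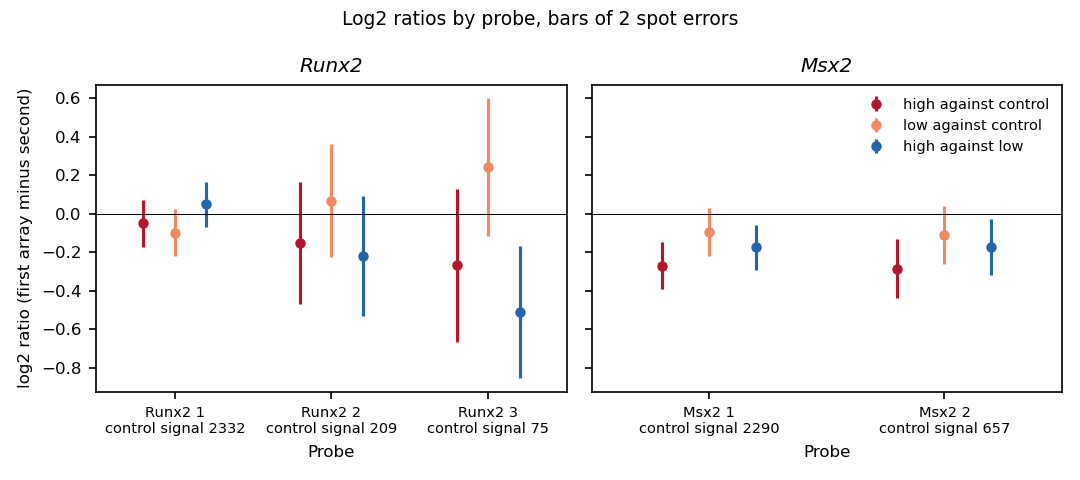
Log2 ratios by probe for Runx2 (left, probes 1 to 3) and Msx2 (right, probes 1 and 2), with bars of 2 spot errors and the mean control signal under each probe. For high against low, the Runx2 probes ran from 0.05 to -0.51, while the Msx2 probes both gave -0.17.

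Cbfb encodes the subunit that stabilises RUNX proteins on DNA. Its spots read 521 and 503 at the high dose, 480 and 483 with the low dose, and 465 and 417 in the control. From highest to lowest the arrays stood in the order high, low, control. The spots of the high dose lay above all others, and after scaling the low dose and control overlapped. Relative to the control, its log2 ratio was 0.20 ± 0.08 (high; 0.36 with spike-in scaling) and 0.07 ± 0.08 (low), and high against low was 0.13 ± 0.08. Of the 725 genes of a similar level, 65 had a higher ratio for high against control. With normexp background correction the Cbfb ratio was 0.17 ± 0.13, within 2 spot errors.

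Sp7 encodes the zinc-finger factor that follows RUNX2 in osteoblast differentiation (probe on chr7:141109948-141110007, rn4, minus strand). It read 198 and 210 at the high dose, 228 and 238 with the low dose, and 218 and 247 in the control. Both spots of the high dose lay below all others, and the low dose and control overlapped. Relative to the control, the high dose stood at -0.20 ± 0.11 and the low dose at -0.05 ± 0.10 (log2), and high against low was -0.15 ± 0.10. None passed 2 spot errors, and with spike-in scaling the first was -0.05. At this signal a difference of the size seen could not be set apart from the spot error.

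Among the homeodomain factors, Msx2, a regulator of skull and tooth bone formation, was lower at the high dose on both of its probes. Probe 1 read 1821 and 2024 at the high dose, 2073 and 2400 with the low dose, and 2232 and 2347 in the control. Probe 2 read 528 and 564, then 618 and 648, then 634 and 681, in the same order of arrays. On each probe the spots of the high dose lay below every spot of the control. After scaling, the low dose overlapped both other arrays on probe 1 and lay between them on probe 2.

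The log2 ratio for high against control was -0.27 ± 0.06 on Msx2 probe 1 and -0.28 ± 0.08 on probe 2, so the probes differed by less than their spot error. The mean was -0.28 ± 0.05 for high against control, a signal 1.21-fold lower, and -0.10 ± 0.05 for low against control. High against low was -0.17 ± 0.05, which placed the arrays of Msx2, from lowest to highest, in the order high, low, control with each gap over 2 spot errors. The gap between low dose and control did not pass with normexp correction (-0.10 ± 0.10), from the authors' deposited table (-0.09 ± 0.05), or with the first (-0.13 ± 0.07) or last spot alone (-0.08 ± 0.07), and that between the doses did not with normexp (-0.16 ± 0.10). Of the 725 genes of a similar level, 17 had a lower ratio for high against control. Scaled on the spike-ins, Msx2 was -0.12 for high against control, and its low against control ratio turned to 0.06. The 1.2-fold limit is 0.263 in log2, and Msx2 was just short of it for high against control with normexp correction (-0.26 ± 0.10) and when computed from the authors' deposited table (-0.26).

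Msx1, the close relative of Msx2, was read by 10 spots per array (probe on chr14:78260990-78261049, rn4, plus strand). Its signals ran from 335 to 413 with a median of 376 at the high dose, from 344 to 417 with a median of 378 at the low dose, and from 320 to 406 with a median of 351 in the control. The arrays overlapped along most of their range. Relative to the control, Msx1 stood at 0.08 ± 0.04 (high) and 0.04 ± 0.04 (low), and high against low was 0.04 ± 0.04, all within 2 spot errors. The 10 spots taken singly ran from -0.09 to 0.27 for high against control, and with spike-in scaling the ratio was 0.24.

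Dlx5, which is switched on by bone morphogenetic signals ahead of Runx2, read 8612 and 8984 at the high dose, 9967 and 9515 with the low dose, and 10032 and 9143 in the control. The high dose spots lay below the others, and the low dose and control overlapped. Relative to the control, Dlx5 stood at -0.14 ± 0.05 (high) and -0.03 ± 0.05 (low), and high against low was -0.11 ± 0.05. With spike-in scaling the first turned to 0.020, so its direction against the control depends on the scaling. The first spot of Dlx5 alone gave -0.24 and the last alone -0.041 for high against control, and normexp correction gave -0.17 ± 0.15.

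Dlx3, a regulator of bone and tooth mineralization, read 9969 and 9041 at the high dose, 10164 and 9212 with the low dose, and 10797 and 9073 in the control. The spots of all 3 arrays overlapped. Its log2 ratios were -0.08 ± 0.05, -0.09 ± 0.05 and 0.01 ± 0.05 in the order of comparisons used above, and both ratios to the control turned positive (0.08 and 0.07) with spike-in scaling. Dlx3 lies on chr10 (probe at chr10:83807495-83807554, plus strand) and Dlx5 on chr4 (chr4:31778601-31778660, minus strand), both in rn4.

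Creb3l1 had the lowest log2 ratio of the 9 genes in both comparisons of the high dose. Its spots read 8711 and 8722 at the high dose, 11663 and 12086 with the low dose, and 11215 and 11278 in the control. The high dose stood apart from both other arrays, and the low dose spots lay at and just above the control after scaling. Relative to the control, Creb3l1 stood at -0.38 ± 0.05 (high) and 0.02 ± 0.05 (low), and the doses differed by -0.40 ± 0.05. In signal relative to the array this was 1.31-fold below the control and 1.32-fold below the low dose.

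Few genes of a similar level were as low as Creb3l1. For high against control, 2 of 725 had a lower ratio, and for high against low, 0 of 723 others did. Under the 12 alternative settings Creb3l1 ran from -0.39 to -0.23 for high against control and from -0.43 to -0.38 for high against low. The upper end of the first range is the spike-in scaling. With normexp correction, whose spot errors were wider, Creb3l1 was at -0.38 ± 0.15 for high against control and -0.40 ± 0.15 for high against low. The low dose ratio of Creb3l1 ran from 0.00 to 0.18.

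Twist1 encodes a basic helix-loop-helix factor that binds and restrains RUNX2 (probe on chr6:52607474-52607533, rn4, plus strand). It read 523 and 507 at the high dose, 488 and 527 with the low dose, and 485 and 454 in the control. The high dose spots lay above those of the control, and the low dose overlapped both after scaling. The log2 ratios of Twist1 were 0.12 ± 0.08, 0.05 ± 0.08 and 0.06 ± 0.08, none past 2 spot errors, and spike-in scaling raised the first to 0.28.

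**Figure D3:**
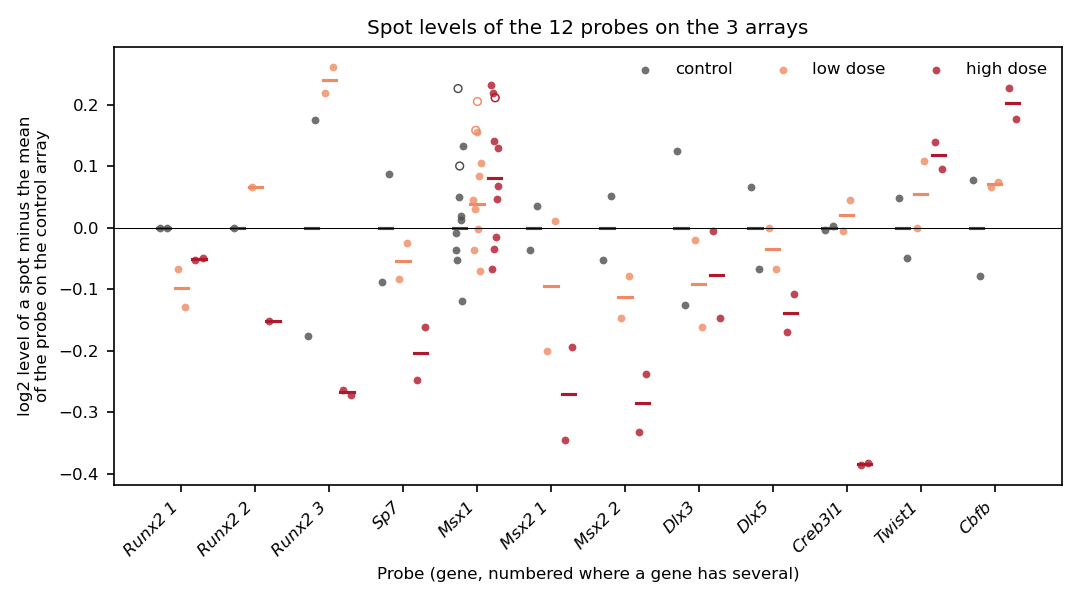
Log2 level of every spot of the 12 probes, after scaling to the 75th percentile and minus the mean of that probe on the control array (grey: control; orange: low dose; red: high dose). Short lines are means, and open circles are spots marked as outliers by the scanner software and left out of the means. Both high dose spots of Creb3l1 lay near -0.38, apart from the other arrays, while the 10 spots of Msx1 overlapped on all 3 arrays.

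Differences between related genes within a comparison are not moved by scaling an array by 1 constant, as on the spike-ins, though other corrections can move them. The pairs below were chosen after their values were seen. Msx2 differed from Msx1 by -0.36 ± 0.06 (log2, Msx2 minus Msx1) for high against control and by -0.21 ± 0.06 for high against low. For low against control that difference was -0.14 ± 0.07. Creb3l1 differed from its paralog Creb3, an endoplasmic reticulum factor of the same family, by -0.37 ± 0.08 for high against control. It differed from Creb3l2, a relative that acts on secretion in cartilage, by -0.39 ± 0.09. Creb3 itself was at -0.01 ± 0.06 and Creb3l2 at 0.01 ± 0.07, and neither was beyond 2 spot errors from 0 without the spike-in shift. With normexp correction, high against control was -0.26 ± 0.10 for Msx2 and 0.10 ± 0.06 for Msx1. It was -0.38 ± 0.15 for Creb3l1, -0.01 ± 0.15 for Creb3 and -0.01 ± 0.14 for Creb3l2. These spot errors are wider than those of the main setting, and pair differences were not computed with normexp.

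Dlx5 and Dlx6 are neighbours, with probes 9940 bp apart on chr4 of rn4. Dlx6 was at 0.13 ± 0.08 for high against control and 0.16 ± 0.08 for high against low, and Dlx5 differed from it by -0.27 ± 0.10 and -0.27 ± 0.09. Dlx5 and Dlx3 did not differ by over 2 spot errors in any comparison (-0.06 ± 0.08 for high against control). Twist1 differed from Tcf12 by -0.18 ± 0.11 for high against control, within 2 spot errors, and by -0.29 ± 0.10 for high against low. Runx2 differed from Runx1 by -0.10 ± 0.10 for high against control, within 2 spot errors, and by -0.22 ± 0.10 for high against low. Runx2 differed from Cbfb by -0.36 ± 0.12 for high against control and by 0.00 ± 0.11 for low against control. These Runx2 values rest on the plain mean of its 3 probes. With normexp correction, high against control was -0.17 ± 0.15 for Dlx5 and 0.11 ± 0.13 for Dlx6. It was -0.10 ± 0.09 for Runx2 and 0.17 ± 0.13 for Cbfb. None of these single ratios passed 2 spot errors, and their pair differences were not computed with normexp.

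Partners and cofactors of the RUNX proteins had a median of -0.06 for high against control over 19 measured of 22 genes, beside -0.01 over all genes. By 1.2-fold 0 were higher and 0 lower, and by over 2 spot errors 3 were higher and 1 lower. Beside this list and those below, 7.16% of all genes were higher and 7.87% lower by 1.2-fold for high against control. By over 2 spot errors 10.7% of all genes were higher and 12.8% lower. Scaled on the spike-ins the median of the list turned to 0.10, with 6 higher and 0 lower, and Stub1 was at -0.02 ± 0.07. Over all 14495 genes 6067 were higher and 247 lower on the spike-ins. With normexp correction 1 of the list was higher and 0 lower, where 379 and 429 of all genes were. Smurf2, a ubiquitin ligase that targets SMAD and RUNX proteins, was at 0.26 ± 0.04, with signals of 3737, 3544 and 3206 in the order high, low, control. Stub1, the chaperone-linked ligase CHIP, was at -0.18 ± 0.07, and Ep300, a histone acetyltransferase, at 0.12 ± 0.06.

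Other homeobox genes of the skeleton had a median of 0.13 over 11 measured of 16 genes. By 1.2-fold 3 were higher (7.16% of all genes) and 0 lower (7.87%). By over 2 spot errors 4 were higher (10.7%) and 1 lower (12.8%). Scaled on the spike-ins the median was 0.29, with 7 higher and 1 lower by over 2 spot errors. With normexp correction it was 0.11, with 1 higher and 1 lower. Alx1, a factor of craniofacial mesenchyme, was at 0.33 ± 0.06 and Meis1, a cofactor of HOX proteins, at 0.33 ± 0.15. Both were higher at the high dose in the main setting, while Msx2 and, without the spike-in shift, Dlx5 were lower. Lower ratios were not particular to Msx2 and Dlx5, as 3 of the 11 genes lay below 0 and 8 above it. The lower gene past 2 spot errors was Prrx2, at -0.23 ± 0.03. Prrx2 was at -0.25 ± 0.07 with normexp correction and at -0.07 ± 0.03 on the spike-ins. Dlx1 was at -0.17 ± 0.09, within 2 spot errors. With normexp correction Alx1 was at 0.31 ± 0.15 and Meis1 at 0.15 ± 0.10, the second within 2 spot errors. For high against low the list had a median of 0.13, with 4 higher and 2 lower by over 2 spot errors. The lower ones were Prrx2 (-0.31 ± 0.03) and Dlx1 (-0.20 ± 0.09). Over all genes 9.75% were higher and 10.8% lower, and with normexp correction 1 gene of the list was higher and 1 lower.

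Factors related to TWIST1, the basic helix-loop-helix, Id, Hey and Snail genes, had a median of 0.01 over 14 measured of 16 genes, with 2 higher and 2 lower by over 2 spot errors, and 6 higher and 0 lower when scaled on the spike-ins. Hey1, a target of Notch signalling, was at -0.54 ± 0.24 from dim signals of 28.8 (high) and 42.6 (control). Id3, an inhibitor of such factors, was at -0.48 ± 0.22 from 49.4 and 68.8. Tcf12, a dimer partner of TWIST1, was at 0.30 ± 0.07, from 704 and 564. With normexp correction none of the 14 genes passed 2 spot errors, and Tcf12 was at 0.28 ± 0.14.

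The other basic leucine zipper factors, the class of CREB3L1, had a median of 0.08 over 11 measured of 14 genes, with 5 higher and 1 lower by over 2 spot errors. Atf6, which like CREB3L1 is released from the endoplasmic reticulum by proteolysis, was at 0.21 ± 0.05. Jun was at 0.21 ± 0.06. Atf4, a stress-response factor that osteoblasts need for collagen synthesis, was at 0.20 ± 0.02, from 52308 at the high dose and 44970 in the control. Creb3l1 stood on the other side of 0 from these 3, which were named for the size of their ratios. Of the 11 genes, 8 lay above 0 and 3 below it. The lower gene past 2 spot errors was Fosb, at -0.18 ± 0.07, and at -0.02 ± 0.07 on the spike-ins. Scaled on the spike-ins the median of the list was 0.24, with 9 higher and 0 lower by over 2 spot errors. With normexp correction 1 was higher, Atf4 (0.20 ± 0.06), and 0 lower. There Atf6 was at 0.19 ± 0.10 and Jun at 0.21 ± 0.15.

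Genes for the proteases that release CREB3L1 and for vesicle coat and collagen loading proteins had a median of 0.05 over 8 of 8 genes. By over 2 spot errors 1 was higher and 2 were lower, and 5 were higher and 0 lower when scaled on the spike-ins. Mbtps1, the site-1 protease, was at -0.11 ± 0.05, and Mbtps2, the site-2 protease, at 0.43 ± 0.20 from signals of 70.4 and 53.8. Mia3, which helps load collagen into transport vesicles, was at -0.07 ± 0.03 and turned to 0.09 ± 0.03 with spike-in scaling. With normexp correction none of the 8 genes passed 2 spot errors. There Mbtps1 was at -0.13 ± 0.15 and Mia3 at -0.03 ± 0.07.

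The list of RUNX2 and SP7 target genes had a median of -0.11 over 10 measured of 15 genes for high against control, with 1 higher and 4 lower by over 2 spot errors and none past 1.2-fold. Scaled on the spike-ins, the median turned to 0.05, with 2 higher and 0 lower by over 2 spot errors, and Col1a1 was at -0.07 ± 0.05 and Fmod at -0.01 ± 0.05. Col1a1, the collagen gene that CREB3L1 activates, was at -0.23 ± 0.05, with signals of 4839 (high), 6073 (low) and 5746 (control). Its high against low ratio was -0.22 ± 0.05, and its low dose was near the control at -0.01 ± 0.05. Col1a2, the other type I collagen gene, was at -0.08 ± 0.05 for high against control and -0.11 ± 0.05 for high against low. A link between these collagen genes and Creb3l1 was not tested. Spp1, which encodes osteopontin, was at 0.26 ± 0.02, and Fmod, a collagen-binding proteoglycan, at -0.17 ± 0.05. With normexp correction 1 target was higher by over 2 spot errors, Spp1 (0.26 ± 0.07), and 0 lower. There Col1a1 was at -0.22 ± 0.13. The lists of targets and of osteoblast markers share genes, and 5 of the targets, Mmp13, Phex, Dmp1, Tnfrsf11b and Tnfsf11, were not above background on any array.

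**Figure D4:**
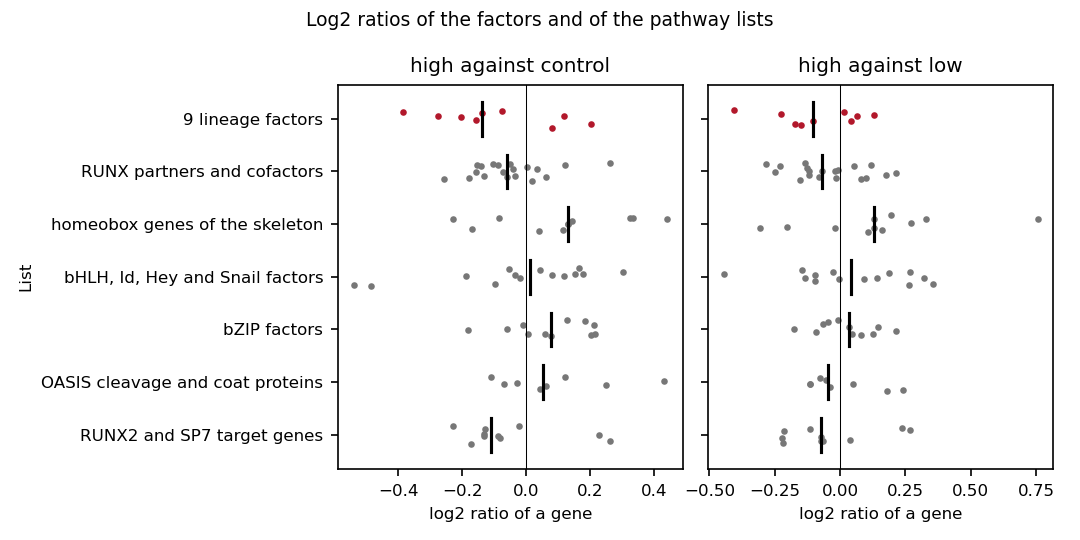
Log2 ratio of every measured gene (dots) in the 9 lineage factors (red) and the 6 pathway lists (grey), with the median as a black line, for high against control (left) and high against low (right). The 9 factors had medians of -0.14 and -0.11, and the other homeobox genes had a median of 0.13 in both.

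The genes whose pattern over the arrays was nearest to Creb3l1 were sought among 7023 genes at or above the median level, by Euclidean distance over the ratios of both doses to the control. Sdc3, a cell-surface heparan sulfate proteoglycan, was nearest at a distance of 0.039 (-0.42 and 0.01). LOC500205 followed at 0.045 (-0.37 and -0.02), then Mybl2, a cell cycle factor, at 0.047 (-0.38 and -0.03). Only 3 arrays enter this distance, and 4 genes lay within 1 spot error of Creb3l1.

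Upstream sequence in a RefSeq table of the GRCr8 assembly was matched for 6 of the 9 genes, in 7 windows of 250 bases before the start (Runx2 has 2). Sp7, Dlx3 and Dlx5 had no entry. The windows of Msx2 and Creb3l1 are shown as those of the genes that passed 1.2-fold. They lie at chr17:11102034-11102283 (plus strand) and chr3:98449105-98449354 (minus strand). Capitals mark matches, on either strand, to 5 motifs that were searched.
Msx2: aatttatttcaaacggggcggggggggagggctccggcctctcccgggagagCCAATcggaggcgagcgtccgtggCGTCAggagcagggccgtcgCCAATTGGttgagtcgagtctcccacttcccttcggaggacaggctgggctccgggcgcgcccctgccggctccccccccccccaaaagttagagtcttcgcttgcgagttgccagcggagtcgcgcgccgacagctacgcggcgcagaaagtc
Creb3l1: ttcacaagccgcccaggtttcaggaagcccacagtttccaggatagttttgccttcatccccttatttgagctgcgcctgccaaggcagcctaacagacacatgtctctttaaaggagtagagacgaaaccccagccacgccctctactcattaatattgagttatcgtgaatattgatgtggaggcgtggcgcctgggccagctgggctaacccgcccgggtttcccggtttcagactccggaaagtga

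The Msx2 window held a CRE core (TGACG on either strand), as did 18.2% of 33469 promoters, and the CCAAT box (CCAAT on either strand), as did 34.0%. A pair of its CCAAT matches overlap. The Creb3l1 window held none of the letters searched. Twist1 and the second Runx2 window also held the CRE core, and Twist1 and Msx1 the CCAAT box. The RUNX core (ACCACA on either strand, 14.5% of promoters) was found in the first Runx2 window. The homeodomain core (TAATTA or TAATTG and its reverse complement, 11.5% of promoters) was found in no window of these genes. Neither was the TATA box (TATAAA on either strand, 12.9%). A match or its lack describes letters in a short window only.

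**Figure D5:**
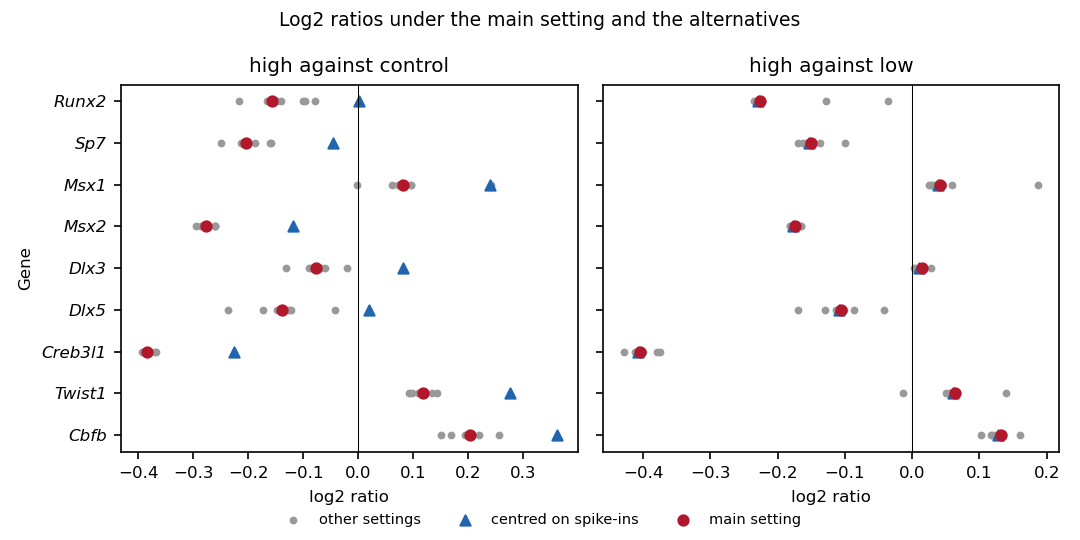
Log2 ratio of each gene under the main setting (red), with arrays centred on the spike-in probes (blue triangles) and under the 11 other alternatives (grey), for high against control (left) and high against low (right). Centring moved every gene up by 0.16 on the left, where Dlx5, Dlx3 and Runx2 (to 0.0020) turned positive, and left the right panel in place, where Creb3l1 ran from -0.43 to -0.38.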

How the data were processed

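The authors deposited the scanner's spot intensity values of 3 one-colour arrays (design 028279), extracted with Feature Extraction 10.7.3.1 under protocol GE1_107_Sep09, per the file headers, with probe coordinates in rn4. The processed signal intensity was background-subtracted and not normalized between arrays, per the file headers. A table of ratio values was deposited too, and how the authors made it is not stated in the labels or headers. Each of its columns equalled the processed signal over 1 constant per array (823, 849 and 823) within 0.00024%, and it served as an alternative. The deposited flags mark spots well above background, saturated spots (0 on each array) and outliers (352 high, 368 low and 426 control of 58717 non-control spots).

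Here, log2 of the processed signal minus the 75th percentile of the array was averaged over spots without the outlier flag, then over probes of a gene name that were well above background (at least 50% of spots) on both arrays compared. Spot errors came from repeat spots pooled in 20 bins of level. All 12 probes also matched these genes by RefSeq accession. The scripts were tested on simulated data. Python 3.11.15 with numpy 2.4.6 and pandas 2.3.3, and R 4.3.3 with limma 3.58.1 (normexp, offset 50), were used. Normexp was applied to the mean spot signal with the median local background, in place of the processed signal. No intensity gives a depth, and the number of arrays limits the precision.

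The 9 genes were always named. In each pathway list the 3 genes with the largest high against control ratio past 2 spot errors were named, or the single furthest from 0 where none passed, and for the gene with the widest range the 3 nearest in pattern. One gene that this rule selects is not reported here. Other genes named were chosen after their values were seen. The members and lists were chosen with earlier results of these data known. The alternatives were other scalings, background corrections, filters, gene names, spot choices and, added after the data were seen, weighting of probes by spot error.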

Additional observations from a re-analysis of the deposited data

Results flagged for a closer look

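The ratios of Creb3l1 and Runx2 to the control had opposite signs at the high and low doses, and the doses differed by over 2 spot errors. The low dose ratios, 0.02 ± 0.05 for Creb3l1 and 0.07 ± 0.08 for Runx2, were within 1 spot error of 0. For Creb3l1 the high against low ratio was -0.40. For Runx2 it was -0.23, and it rested on the dim probes 2 and 3. Weighting the probes turned its low dose ratio to -0.04, and spike-in scaling turned its high dose ratio to 0.0020. With 1 array per dose the difference was not tested.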

How the results depend on the processing

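Of the medians and counts over the 9 genes, 90 values under alternatives stayed within the limits set and 18 moved. A count was held to its total alone, so the 90 include the turn from 2 lower to 2 higher past 1.2-fold for high against control on the spike-ins. Of the values of single genes and lists, 489 stayed, 49 moved and 2 reversed. With normexp background correction, 1 gene passed 1.2-fold and 2 passed 2 spot errors for high against control, 0 did for low against control and 1 between the doses, beside 2, 4, 1 and 4. Centred on the spike-ins, the median was 0.020 for high against control and 0.18 for low against control, beside 0.15 and 0.16 over all genes. For low against control 6 genes passed 2 spot errors on the spike-ins, all higher, where 6580 of 14621 genes were higher. There Dlx5 turned to 0.020 (high against control) and Msx2 to 0.058 (low against control). Over all genes, those past 1.2-fold for high against control numbered 3347 higher and 364 lower there, 339 and 405 with normexp and 3214 and 3398 without a filter on dim probes, beside 1038 and 1141. For low against control they numbered 2369 and 253, 89 and 182, and 2364 and 3369, beside 583 and 743. Between the doses normexp gave 330 and 197 and no filter 3390 and 2534, beside 1009 and 887. With the authors' deposited table, 1 gene passed 1.2-fold for high against control and 0 passed 2 spot errors for low against control. With the first spot alone, 0 passed 2 spot errors for low against control and the high against low median was -0.16. With the last spot alone, 1 gene passed 1.2-fold for high against control and 0 passed 2 spot errors for low against control, and the median was -0.041 for high against control and also -0.041 for high against low. With probes weighted by spot error (added after the data were seen), the high dose had a median of -0.079 and the low dose one of -0.034 relative to the control, and the doses one of -0.035. The causes were not tested. No paired analysis was possible because each group had 1 array. No replicate could be left out, and spot errors leave out culture and labelling.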
